A study of Mus musculus with 40 samples.

Results

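The effect of adding the Kat6b G577E mutation to embryos that already carried Kat6a G656E was read from 8 whole-embryo RNA-sequencing libraries of the 40 libraries in the series. The members were chosen by their genotype and stage labels alone: 4 libraries were from E9.5 embryos homozygous for both point mutations (Kat6a G656E/G656E with Kat6b G577E/G577E, written Kat6a E/E;Kat6b E/E or double point mutant), and 4 were from E9.5 embryos homozygous for Kat6a G656E with WT Kat6b (Kat6a E/E). Both groups therefore shared the homozygous Kat6a mutation, made with CRISPR on C57BL/6J, and the genotypes compared differed at Kat6b. The series also held WT, Kat6b E/E, Kat6a-/- and Kat6b-/- E9.5 embryos and 4 genotypes of E14.5 fetal liver LSK cells (lineage-negative, SCA-1-positive, c-KIT-positive progenitors sorted by flow cytometry), with 4 libraries each. According to the study, all embryos sequenced were male and were selected for similar external appearance after genotyping of the extra-embryonic membranes. In the data, 3 of the 24 E9.5 libraries, 1 Kat6a-/- and 2 Kat6b-/-, had high Xist and almost no reads of Y-linked genes, against that description; the 8 libraries compared here all had Y-linked reads. The mutations are germline and present in every cell, and a whole embryo mixes all its tissues, so fewer cells of a type and less RNA per cell cannot be told apart.

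KAT6A (MOZ) and KAT6B (MORF) are paralogous lysine acetyltransferases of the MYST family. Each is the catalytic subunit of a complex with a BRPF scaffold (BRPF1, BRD1 or BRPF3), ING4 or ING5 and MEAF6, which acetylates histone H3. In mouse embryos KAT6A is known for its part in Hox and Tbx1 expression and in blood stem cells, and KAT6B for its part in brain development. The point mutations are missense changes that replace a glycine of the acetyltransferase domain by glutamate. The question put to these libraries was whether loss of the KAT6B glycine changes gene expression when the KAT6A glycine is already lost.

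The mutated codons are shown because they define these alleles. The reference coding strand around each is given below from GRCm39 with GENCODE vM39 gene models, which also give the gene positions printed further on, with the glycine codon in capitals. Kat6a lies at chr8:23349545-23433275 and Kat6b at chr14:21531502-21722546, both on the plus strand. The Kat6a codon at chr8:23416459-23416461 is in exon 13 of 18, and the Kat6b codon at chr14:21687681-21687683 is in exon 12 of 17; both are coding sequence.
Kat6a G656E: taccaacgtaagGGCtacggcaggttt
Kat6b G577E: caccaaaggcaaGGAtttggacgcttt

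Total counts were 14678249 to 17759715 read pairs in the double point mutant libraries and 14135583 to 23339359 in the Kat6a E/E libraries. Replicates 1 and 3 of the double point mutant were littermates, as were replicates 2 and 3 of Kat6a E/E, and no litter held both genotypes, so that litter and genotype were nested. Double point mutant replicate 2 stood apart. Over the 500 genes that differed most in each pair of libraries, the root-mean-square log2 distance averaged 1.67 between it and the other 3 double point mutant libraries, against 1.14 among those 3 and 1.25 among the Kat6a E/E libraries. In 327 genes it lay over 1 log2 unit from the mean of the other 3 libraries of its genotype, where the same count was 29 to 74 genes for each of those 3. Markers of the adult blood cell, trophoblast and decidua lists summed to 0.594 to 5.36 CPM (counts scaled to a common library size) in each of the 8 libraries, so tissue of these kinds was at or near 0. Visceral endoderm and yolk sac genes were not near 0. Their sum was 104 to 118 CPM in the double point mutant and 104 to 134 CPM in Kat6a E/E, with overlap.

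Few genes were called in the main fit when Kat6b G577E was added, and the number called depended on the fit, as given below. At an FDR under 0.05, 17 genes were higher and 3 were lower in Kat6a E/E;Kat6b E/E than in Kat6a E/E embryos, of 14183 tested (0.141%; 0.12% higher and 0.0212% lower). The genes that rose included Fgf15, Spry1, Hes1, Mycn, Odc1, Cdkn1b, Gja1 and Hk2, and those that fell were Celsr2, Dpysl4 and Notch1. The 20 genes had a median log2 fold change of 0.37 in absolute size, and 16 changed by less than 1.5-fold. Against WT, which both comparisons share, Kat6a E/E embryos had 39 called genes (0.275%) and double point mutant embryos 413 (2.91%). Of the 20, 13 were higher and 2 were lower in every double point mutant library than in every Kat6a E/E library, where 4.98% of all genes did not overlap in either direction (2.42% higher, 2.57% lower). For 11243 of the genes tested, the 95% confidence interval of the change lay within 1.5-fold in either direction.

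These calls rested on the library set and on the surrogate variables, which are estimated unwanted factors that the study's model removes. Without double point mutant replicate 2 limma called no gene (1244 had an unadjusted p below 0.05, and the lowest FDR was 0.0546). Without surrogate variables limma called none either, and 1407 genes had an unadjusted p below 0.05, against 1403 with them (9.89% of genes tested; 5.03% higher and 4.86% lower). Without replicate 2, edgeR and DESeq2 were not run; with all libraries and no surrogate variables edgeR called 3 genes and DESeq2 110. Leaving out double point mutant replicate 1, 3 or 4 gave 44, 58 and 4 calls, and leaving out Kat6a E/E replicate 3 or 4 gave 31 and 3. All 20 genes kept their direction in all 32 alternative fits, but these reuse most of the libraries that chose the genes. Without replicate 2 the log2 fold changes of the 20 genes were 0.717 to 1.08 times the values with it. With surrogate variables that library had a weight of 10.04% in its group, against 23.3% to 36.27% for the others. Without surrogate variables the effect of leaving it out differed by gene. Tbl2 went from 0.61 to 0.24, Hk2 from 0.77 to 0.37 and Gja1 from 0.28 to 0.31.

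**Figure D1:**
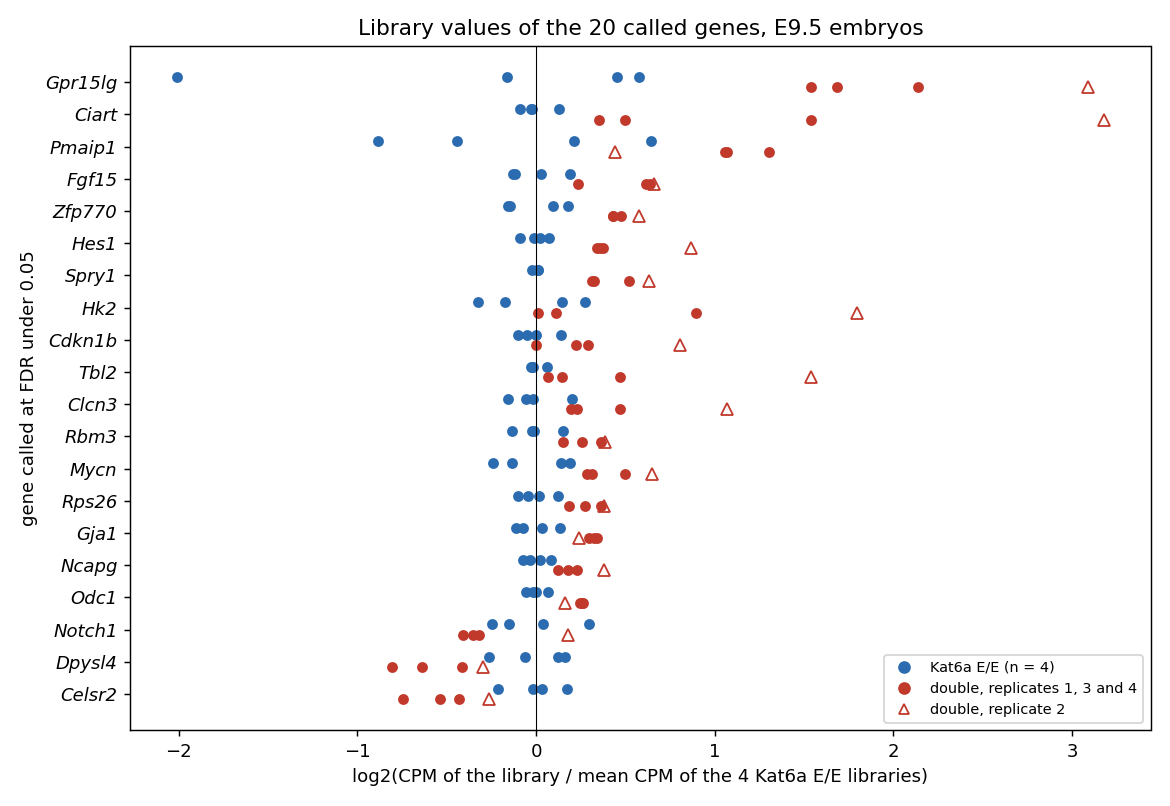
CPM of each library relative to the mean of the 4 Kat6a E/E libraries, on a log2 scale, for the 20 genes called at an FDR under 0.05, ordered by fitted log2 fold change. Points are libraries (blue Kat6a E/E, red double point mutant, open triangle double replicate 2). Replicate 2 lies far above its group for Ciart, Hk2, Tbl2, Gpr15lg and Clcn3, and 15 of the 20 genes do not overlap between genotypes.

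Transcripts of the mutated genes and of their partners did not differ detectably. Kat6a read 177, 164, 173 and 168 CPM in the 4 double point mutant libraries and 217, 160, 153 and 178 CPM in the Kat6a E/E libraries (log2 fold change -0.08, SE 0.10, FDR=0.84). Kat6b read 42.0, 56.0, 40.7 and 40.7 CPM against 44.7, 40.1, 37.8 and 39.7 CPM (log2 fold change 0.03, SE 0.07, FDR=0.92), and the groups overlapped for both genes. A point mutation leaves the transcript countable, so these levels do not check the genotypes. The other 6 subunit genes, the scaffolds Brpf1, Brd1 and Brpf3 and the subunits Ing4, Ing5 and Meaf6, lay between log2 fold changes of -0.09 and 0.09, and none of the 8 had an unadjusted p under 0.05. Of 8 genes for other acetyltransferases, none was called; Crebbp, a histone acetyltransferase, was the only member at an unadjusted p under 0.05 (log2 fold change -0.20, FDR=0.49).

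The gene with the smallest p was Fgf15 (chr7:144450268-144454690), which encodes a fibroblast growth factor made in the embryonic brain and pharyngeal region. It read 32.4, 33.4, 32.9 and 24.9 CPM in the double point mutant libraries and 19.4, 21.6, 19.5 and 24.2 CPM in Kat6a E/E. Every double point mutant library was above every Kat6a E/E library, replicate 4 by the least, and Fgf15 rose (log2 fold change 0.64, SE 0.10, FDR=0.01). Spry1 (chr3:37693897-37698755), a feedback inhibitor of receptor tyrosine kinase signalling, read 48.1, 52.0, 41.7 and 41.9 CPM against 33.0 to 33.7 CPM, without overlap, and rose (log2 fold change 0.40, SE 0.07, FDR=0.02). Against WT, Spry1 had a log2 fold change of -0.27 (FDR=0.07) in Kat6a E/E and 0.12 (FDR=0.35) in the double point mutant. Fgf15 had values of -0.24 (FDR=0.37) and 0.40 (FDR=0.02) in the same order. Fgf15 and Spry1 are in the list of FGF ligands, receptors and feedback genes, of which 28 were tested. Of these, 2 rose, none fell and 26 did not pass the test. Of the 28, 8 had an unadjusted p under 0.05, all higher, against 5.03% of all genes at this level and higher. Without replicate 2 there were 6. The 8 with all libraries included the feedback phosphatase Dusp6 (log2 fold change 0.22, FDR=0.14) and the inhibitor Spry2 (0.25, FDR=0.20). The ligands Fgf8 (0.28, FDR=0.44) and Fgf3 (0.60, FDR=0.37) were also among them. The list median was 0.104 on the log2 scale, against 0.00152 over all genes tested, and 0.103 without replicate 2.

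Hes1 rose and Notch1 fell, which are both genes of the Notch pathway. They and Dtx4 were named for their small p, and no list of Notch pathway genes was examined. Hes1 (chr16:29882134-29886643), a Notch-induced transcriptional repressor that maintains progenitors, read 58.9, 85.0, 60.3 and 59.7 CPM against 46.1, 43.8, 49.0 and 47.3 CPM; all double point mutant libraries were higher, replicate 2 the most, and Hes1 rose (log2 fold change 0.40, SE 0.07, FDR=0.02). Notch1 (chr2:26347915-26406675), a receptor of the pathway, read 108, 162, 112 and 115 CPM against 176, 129, 121 and 147 CPM. Replicates 1, 3 and 4 were below every Kat6a E/E library while replicate 2 was inside their range, and Notch1 fell in the fit (log2 fold change -0.30, SE 0.06, FDR=0.04), though it was called in 10 of the 32 alternatives. Dtx4, a Notch pathway ubiquitin ligase, had a log2 fold change of -0.27 (FDR=0.12).

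Mycn, Odc1 and Rps26, genes of growth and protein synthesis, rose relative to Kat6a E/E. Against WT, Mycn had a log2 fold change of -0.28 (FDR=0.02) in Kat6a E/E and 0.03 (FDR=0.81) in the double point mutant. Rps26 had values of -0.19 (FDR=0.07) and 0.06 (FDR=0.55) in the same order, and Odc1 -0.06 (FDR=0.56) and 0.13 (FDR=0.04). Mycn and Rps26 thus did not differ detectably from WT in the double point mutant. These WT comparisons share libraries with the main one. Mycn (chr12:12986076-12992915), the MYC family transcription factor of embryonic progenitors, read 176, 222, 173 and 200 CPM against 156, 120, 129 and 162 CPM (log2 fold change 0.31, SE 0.06, FDR=0.04). Odc1, the rate-limiting enzyme of polyamine synthesis, read 588, 548, 585 and 582 CPM against 472, 485, 513 and 490 CPM (log2 fold change 0.19, SE 0.04, FDR=0.04). Neither gene overlapped between genotypes. Of the 15 Myc and polyamine genes tested, these 2 rose and 13 did not pass the test. At an unadjusted p under 0.05 there were 6, all higher, including Npm1 (0.15, FDR=0.09) and Myc (0.31, FDR=0.19). Without replicate 2 there were 8. Over all genes, 5.03% were at this level and higher with all libraries. Of 84 cytoplasmic ribosomal protein genes, 1 rose (Rps26, log2 fold change 0.25, SE 0.05, FDR=0.04) and none fell. The list median was 0.0576 with 69 of 84 above 0, where 50.6% of all genes were. Ribosomal protein genes have many near-identical pseudogenes, so their counts are uncertain.

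Cdkn1b, Ncapg and Pmaip1, genes of the cell cycle and of cell death, rose. Cdkn1b (chr6:134897364-134902476), which encodes the cyclin-dependent kinase inhibitor p27, read 47.9, 83.6, 55.9 and 58.6 CPM against 46.2, 52.7, 44.6 and 47.8 CPM; the groups overlapped through replicate 1, and replicate 2 was the highest library (log2 fold change 0.36, SE 0.06, FDR=0.02). Ncapg, a condensin subunit, had a log2 fold change of 0.21 (SE 0.04, FDR=0.04) without overlap. Pmaip1, the BH3-only cell death gene NOXA, had one of 0.87 (SE 0.18, FDR=0.04). Pmaip1 was not a member of the list of kinase inhibitor and p53 target genes. Of the 16 listed genes tested, Cdkn1b was the 1 that rose and none fell. None of 25 proliferation genes was called; the cyclin gene Ccne2 had the smallest FDR (log2 fold change 0.31, FDR=0.06).

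The hypoxia response genes, targets of the oxygen-sensing HIF factors, were high in replicate 2 of the double point mutant, and Hk2 was the 1 of 25 tested that was called. Hk2 (chr6:82699740-82751469), the glycolytic hexokinase, read 144, 462, 134 and 247 CPM in the double point mutant libraries and 147, 106, 118 and 161 CPM in Kat6a E/E. Replicates 1 and 3 were inside the Kat6a E/E range, and replicates 2 and 4 were above it. Hk2 was called with all libraries (log2 fold change 0.39, SE 0.08, FDR=0.04) and had a log2 fold change of 0.35 and an FDR of 0.57 without replicate 2. The 25 genes of the list summed to 5800, 13600, 5760 and 7300 CPM in the double point mutant libraries, 4980 to 5670 CPM in Kat6a E/E, 5270 to 6400 CPM in WT and 5540 to 6270 CPM in Kat6b E/E. Of the 25, 18 had an unadjusted p under 0.05, all higher, where 5.03% of all genes did so. Without replicate 2 there were 7, and the median went from 0.364 to 0.276. Without surrogate variables the median was 0.701 with all libraries and 0.278 without replicate 2. With all libraries, Vegfa, an angiogenic factor, had a log2 fold change of 0.36 (FDR=0.12), Ero1a, an oxidase of protein folding, one of 0.42 (FDR=0.12) and Slc2a1, the glucose transporter GLUT1, one of 0.39 (FDR=0.18). The part of this library's state in the comparison was not tested beyond leaving it out.

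**Figure D2:**
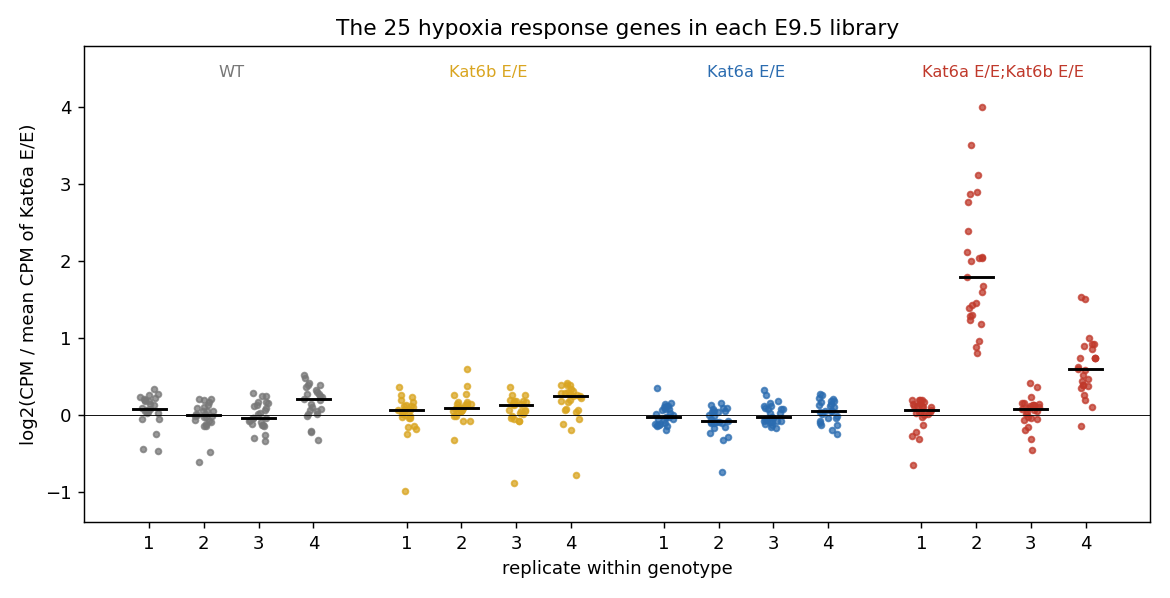
The 25 hypoxia response genes in each E9.5 library as log2 of CPM over the mean of the Kat6a E/E libraries; each point is a gene and each bar the median of a library. In double point mutant replicate 2 all 25 genes lie above 0, replicate 4 is intermediate, and the other 14 libraries shown have medians near 0.

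Ciart, Tbl2 and Clcn3, which also rose, were high in the same library. Ciart, a circadian repressor, read 5.76, 40.8, 6.36 and 13.1 CPM against 4.24 to 4.93 CPM (log2 fold change 1.07, SE 0.19, FDR=0.02). Tbl2, an endoplasmic reticulum protein of the unfolded protein response, read 50.8, 133, 48.1 and 63.5 CPM against 44.9 to 47.9 CPM (0.36, SE 0.07, FDR=0.04). Clcn3, a chloride-proton exchanger of endosomes, read 67.9, 124, 69.4 and 81.9 CPM against 53.1 to 68.2 CPM (0.36, SE 0.06, FDR=0.02). Replicate 2 was 4.84, 2.47 and 1.70 times the mean of the other 3 libraries for these genes, and 2.64 times for Hk2. Without surrogate variables, with all libraries, the log2 fold changes were 1.43 for Ciart, 0.61 for Tbl2, 0.50 for Clcn3 and 0.77 for Hk2. Without replicate 2 the log2 fold changes were 0.95, 0.26 and 0.31, with FDRs of 0.325, 0.315 and 0.102.

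The promoters of these genes are shown because the library with their highest CPM is also the one high in oxygen-response transcripts. A link between the motif below and their values was not tested. RefSeq promoter windows, from 250 bases before to 50 bases after the start in the GRCm38.p6 build, were matched for 14 of the 20 called genes. The motif ACGTG, the core of the hypoxia response element, was searched on both strands; it also lies inside the E-box CACGTG, where both strands match. It was found for 5 of the 14 (Ciart, Clcn3, Hk2, Tbl2 and Zfp770), 35.7%, against 21.8% of 27025 genes with a window. Matches are in capitals in 3 of these promoters. Those of Ciart are all CACGTG, which was found in 8.09% of genes. A match in a window of this length is not a binding site.
Ciart (GRCm38.p6 chr3:95882179-95882478, minus strand): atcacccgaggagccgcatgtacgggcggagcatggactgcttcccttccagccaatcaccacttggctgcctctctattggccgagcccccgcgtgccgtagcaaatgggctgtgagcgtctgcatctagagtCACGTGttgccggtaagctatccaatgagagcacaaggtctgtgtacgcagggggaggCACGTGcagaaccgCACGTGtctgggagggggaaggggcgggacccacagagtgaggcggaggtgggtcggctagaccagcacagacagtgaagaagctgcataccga
Tbl2 (GRCm38.p6 chr5:135149436-135149735, plus strand): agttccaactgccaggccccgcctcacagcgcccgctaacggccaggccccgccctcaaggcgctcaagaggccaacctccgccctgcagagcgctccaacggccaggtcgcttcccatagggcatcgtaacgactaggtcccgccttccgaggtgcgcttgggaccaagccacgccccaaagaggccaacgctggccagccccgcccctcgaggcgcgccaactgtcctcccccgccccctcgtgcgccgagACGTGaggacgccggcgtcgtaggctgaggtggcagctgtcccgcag
Hk2 (GRCm38.p6 chr6:82774405-82774704, minus strand): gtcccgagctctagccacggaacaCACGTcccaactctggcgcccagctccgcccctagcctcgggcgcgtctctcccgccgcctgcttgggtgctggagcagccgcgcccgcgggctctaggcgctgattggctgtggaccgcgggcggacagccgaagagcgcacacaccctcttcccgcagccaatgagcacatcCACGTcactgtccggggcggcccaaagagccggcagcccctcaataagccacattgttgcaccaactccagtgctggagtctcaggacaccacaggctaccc

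The 3 genes that fell were Notch1 and a pair of genes of the nervous system. Celsr2 (chr3:108298165-108323397), an atypical cadherin of planar cell polarity, read 120, 145, 129 and 104 CPM in the double point mutant and 196, 172, 150 and 178 CPM in Kat6a E/E, without overlap (log2 fold change -0.38, SE 0.06, FDR=0.02). Dpysl4, a CRMP family protein of growing axons, read 37.3, 47.1, 43.5 and 33.1 CPM against 63.2, 64.8, 48.2 and 55.6 CPM, also without overlap (-0.37, SE 0.07, FDR=0.04). Of 32 genes of the neurogenesis and neuron list, Dpysl4 was the 1 that fell, none rose and 31 did not pass the test. Of the 32, 14 had an unadjusted p under 0.05, all lower, also without replicate 2, against 4.86% of all genes at this level and lower. They included the microtubule protein Dcx (-0.66, FDR=0.12), the neurofilament protein Ina (-0.64, FDR=0.17), Crmp1 (-0.22, FDR=0.15) and Tubb3 (-0.23, FDR=0.37). The list median was -0.222, and -0.225 without replicate 2. The list summed to 1000, 1190, 1100 and 915 CPM in the double point mutant and 1480, 1520, 1150 and 1160 CPM in Kat6a E/E. Only double point mutant replicate 2 lay inside the Kat6a E/E range. The sum ranged from 1050 to 1440 CPM in WT and from 1060 to 1270 CPM in Kat6b E/E, so it also varied within a genotype and overlapped the double point mutant range.

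Other genes with the smallest p among the lower ones did not pass the test. Rims2, a presynaptic scaffold, read 8.12, 8.04, 7.74 and 6.67 CPM against 11.7, 15, 13 and 12.1 CPM, without overlap (log2 fold change -0.64, FDR=0.06). Adgrg1, an adhesion receptor of neural progenitors, had a value of -0.36 and the adaptor Traf4 one of -0.21 (each FDR=0.06), and the retinoid X receptor gene Rxra one of -0.20 (FDR=0.09). Adra1a, an adrenergic receptor near 1 CPM, had a value of -1.62 (FDR=0.11). Megf10 (-0.45), Igdcc3 (-0.15) and Clip2 (-0.24) had FDRs of 0.12. Of 20 neural progenitor genes none was called; the intermediate filament gene Nes had the smallest FDR (-0.26, FDR=0.28). Of 18 tubulin and actin genes none was called. A negative log2 fold change was found for 17, with a median of -0.0611, where 7004 of all 14183 genes tested had one. At an unadjusted p under 0.05 there were 6, all lower, and 8 lower without replicate 2. Over all genes, 4.86% were at this level and lower with all libraries.

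Among the 20 called genes, Gpr15lg and Pmaip1 had the largest fitted changes beside Ciart, and their values are given beside those of tail bud genes. Gpr15lg, which encodes a secreted ligand of the receptor GPR15, read 6.05, 17.7, 6.69 and 9.16 CPM in the double point mutant against 2.85, 0.517, 3.11 and 1.86 CPM in Kat6a E/E (log2 fold change 1.32, SE 0.23, FDR=0.02). Pmaip1 read 10.1, 6.60, 10.2 and 12 CPM against 5.64, 3.58, 7.59 and 2.63 CPM. A list of 10 tail bud genes, chosen after these values were seen, summed to 109, 83.5, 89.1 and 130 CPM in the double point mutant and 59.4, 19.0, 84.3 and 29.6 CPM in Kat6a E/E. The sum ranged from 31.6 to 81.8 CPM in WT and from 26.8 to 101 CPM in Kat6b E/E, so that it varied among libraries of 1 genotype. In the Kat6a E/E libraries Gpr15lg, Pmaip1 and Cdx2, a tail bud transcription factor (7.96, 0.862, 15.3 and 2.25 CPM), were all highest in replicate 3, as was the tail bud sum. In the double point mutant, Gpr15lg was highest in replicate 2, where the tail bud sum was lowest. Its value there was 2.43 times the mean of the other libraries of that genotype. With the log2 sum of these genes as a further covariate, Gpr15lg had a log2 fold change of 0.56 (FDR=0.68) and Pmaip1 one of 0.37 (FDR=0.55), and 2 genes were called in all, Fgf15 and Cdkn1b. The fold changes of most other genes stayed close to those without the covariate, such as Spry1 (0.40 with and without it), Hes1 (0.39 against 0.40) and Mycn (0.31 in both). The covariate was computed from the same libraries, and the part of tail bud tissue in the comparison was not tested otherwise.

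**Figure D3:**
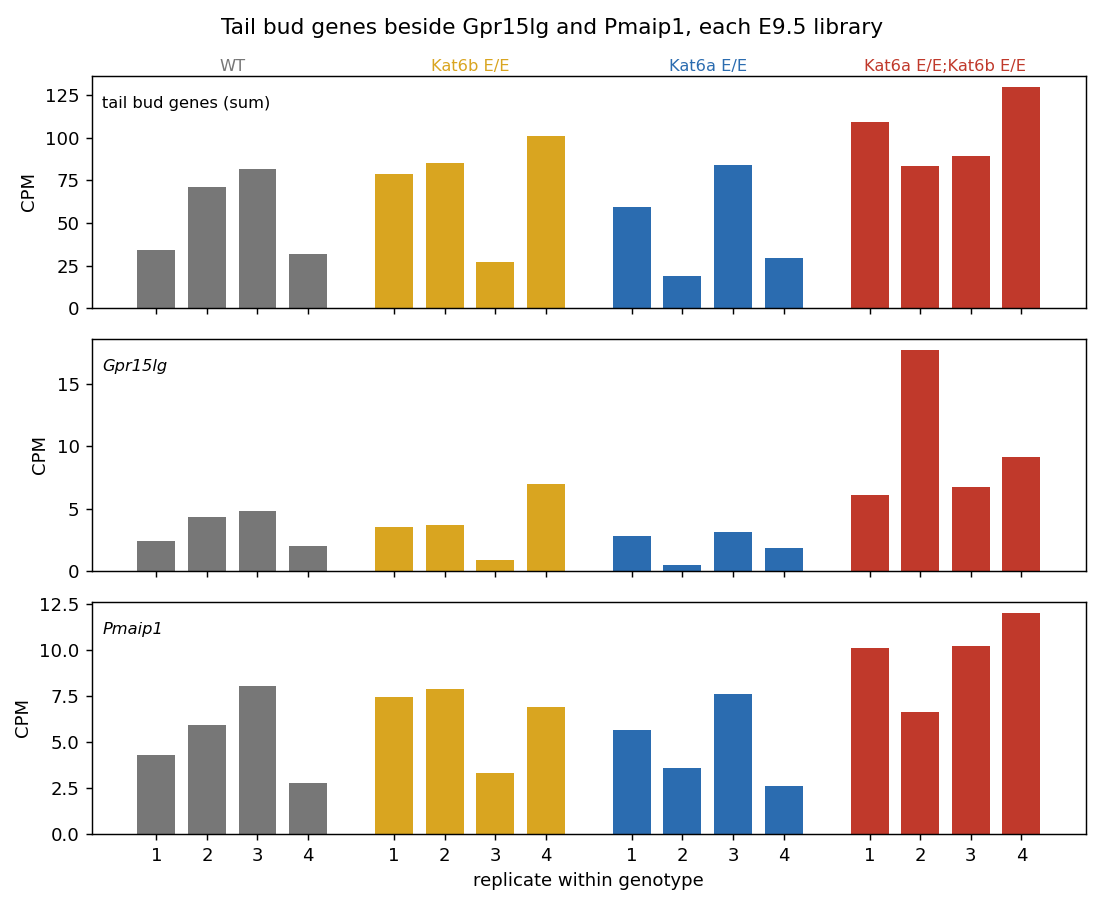
Bars give CPM in each E9.5 library for the sum of 10 tail bud genes, for Gpr15lg and for Pmaip1, by genotype and replicate. The double point mutant libraries lie between 83.5 and 130 CPM for the tail bud sum, where Kat6a E/E libraries range from 19.0 to 84.3 CPM.

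No Hox gene, a family that patterns the body axis, was called. Of 38 tested, 10 had an unadjusted p under 0.05 and were higher, and 1 was lower (Hoxa2, -0.28, FDR=0.38). Over all genes these shares were 5.03% and 4.86%. Hoxd1 (0.76, FDR=0.12) had the smallest p, and the others included Hoxd8 (0.62, FDR=0.15) and the posterior members Hoxa10 (0.96, FDR=0.34) and Hoxa13 (2.08, FDR=0.33). Hoxa13 was near the floor, at 0 to 0.594 CPM in Kat6a E/E and 1.44 to 2.06 CPM in the double point mutant. In WT it ranged from 0 to 2.2 CPM. The list median was 0.171 with surrogate variables and 0.52 without them. The summed level overlapped between genotypes, at 721 to 1030 CPM in the double point mutant and 461 to 828 CPM in Kat6a E/E. The tail bud sum was also higher on average in the double point mutant, as given above, and its part in the Hox values was not tested.

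Genes of heart and pharyngeal development did not change detectably. Of the T-box and forkhead genes that the study named at E9.5, Tbx1 (log2 fold change -0.10), Tbx2 (-0.16), Tbx5 (0.12), Tbx15 (-0.35), Foxa2 (0.12), Foxc1 (-0.03) and Foxc2 (-0.11) all had FDRs of 0.66 or above. The study named them from embryos of this series, so the list is not independent of the samples. Tbx1, the gene lost in DiGeorge syndrome, read 20.9, 22.1, 18.5 and 22.5 CPM in the double point mutant and 18.7, 20.7, 26.8 and 26.3 CPM in Kat6a E/E, with overlap. Of 30 cardiac genes none was called and none had an unadjusted p under 0.05. Of these, 24 were above 0, where 50.6% of all genes were, and the median was 0.0862. Without surrogate variables the median was 0.175, and 0.225 when replicate 2 was also left out. The list summed to 2170 to 2540 CPM in the double point mutant and 1760 to 2210 CPM in Kat6a E/E, with overlap. In WT the sum ranged from 1570 to 2310 CPM. Among 21 pharyngeal arch genes, 23 somite and sclerotome genes, 14 blood stem cell factors, 16 erythroid genes, 16 Hedgehog genes, 18 retinoic acid pathway genes and 20 Polycomb genes none was called. Of 50 Wnt pathway genes, Celsr2 fell and the other 49 did not pass the test.

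**Figure D4:**
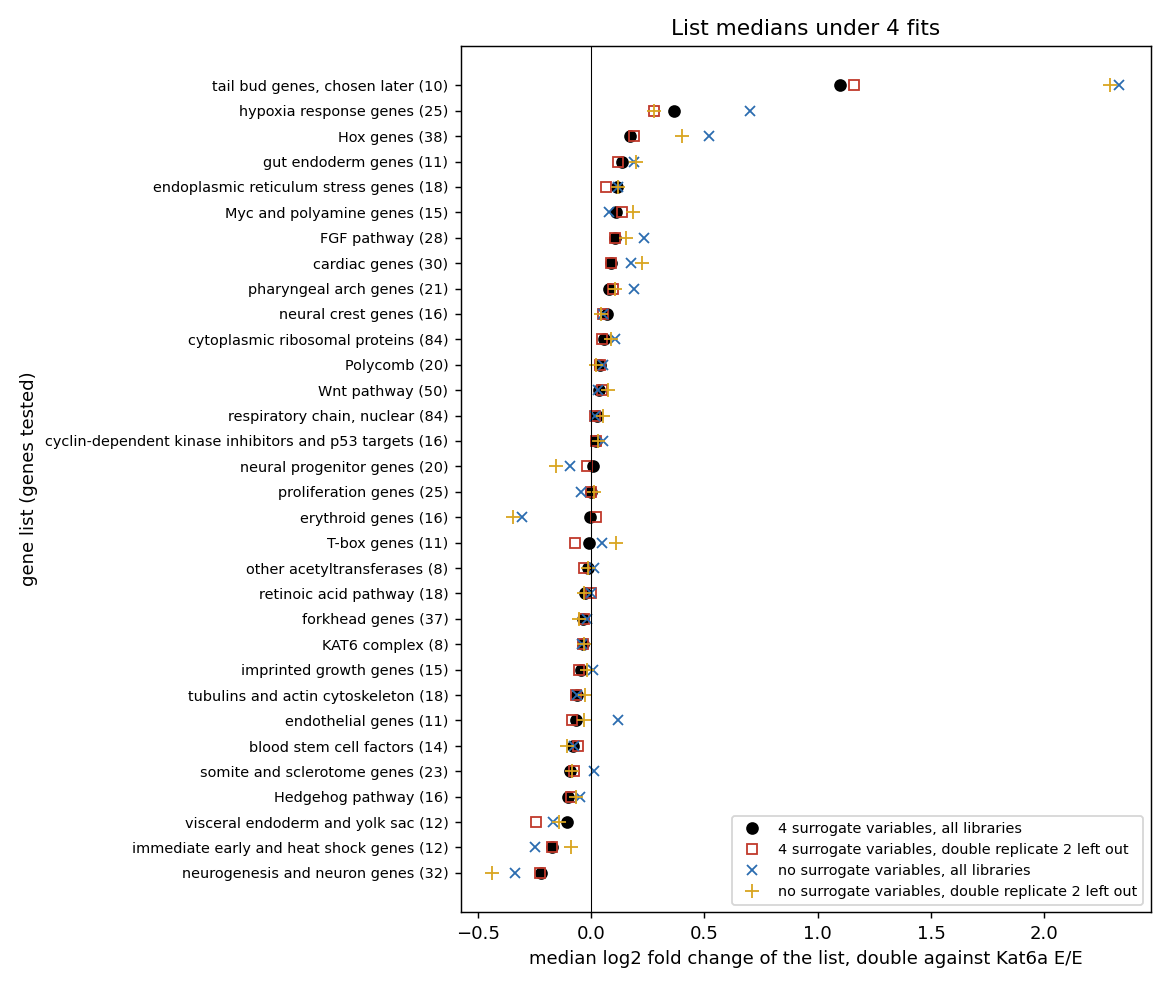
Median log2 fold change of each gene list with at least 8 genes tested, with all libraries or without double point mutant replicate 2, and with 4 or no surrogate variables. Hypoxia response genes lie at 0.364 with all libraries and 0.276 without replicate 2, and neurogenesis and neuron genes lie below 0 in all 4 fits, from -0.436 to -0.222.

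Gja1, Rbm3 and Zfp770 also rose. Gja1, the gap junction protein connexin 43, read 318, 297, 308 and 314 CPM against 257, 232, 239 and 276 CPM (log2 fold change 0.22, SE 0.04, FDR=0.02). Rbm3, a cold-inducible RNA-binding protein, had a value of 0.34 (SE 0.07, FDR=0.04), and the zinc finger gene Zfp770 one of 0.41 (SE 0.08, FDR=0.04). None of the 3 overlapped between genotypes, with all libraries or without replicate 2.

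The same Kat6b mutation on a WT Kat6a background gave no call. In Kat6b E/E against WT embryos, 0 of 14183 genes passed in limma, edgeR or DESeq2 (0% called), and 626 genes (4.41%) had an unadjusted p below 0.05 in limma. The Kat6b G577E effects in the 2 backgrounds were then compared by an interaction term, which also called 0 genes at an FDR under 0.05 (0%), where 910 (6.42%) had an unadjusted p below 0.05 and the lowest FDR was 0.15; edgeR called 0 and DESeq2 2. For Spry1 the effect was 0.40 in the Kat6a E/E background and -0.10 (SE 0.07) in the WT background, a difference of 0.50 (SE 0.10, FDR=0.21). For Mycn it was 0.31 and -0.14 (difference 0.46, SE 0.08, FDR=0.15), and for Cdkn1b 0.36 and -0.06 (difference 0.42, SE 0.09, FDR=0.23). Of the called genes, 12 of 20 had the same sign in Kat6b E/E against WT, and Mycn and Dpysl4 had an unadjusted p under 0.05 there, Mycn in the opposite direction. Outside the called genes, Prkab2 (difference 0.46, FDR=0.23), Zdhhc7 (-0.32, FDR=0.30), Irgq (-0.32, FDR=0.31) and Adam22 (-0.73, FDR=0.31) had the smallest p for the difference. The interaction uses the same 8 libraries as the comparison that chose the called genes, so its values for them are not independent.

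**Figure D5:**
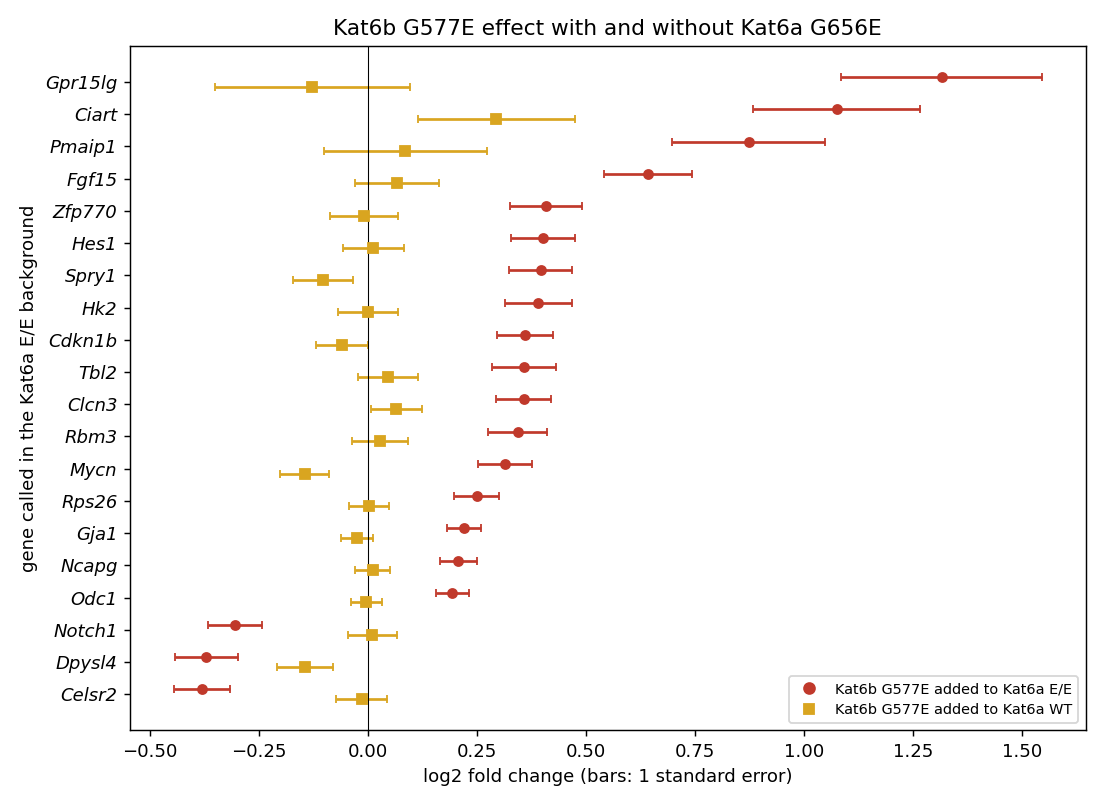
Log2 fold change with 1 standard error for the 20 called genes when Kat6b G577E was added to Kat6a E/E (red circles) or to WT Kat6a (yellow squares), n = 4 libraries per genotype. Dpysl4 lies below 0 in both, and Mycn lies at 0.31 in one and -0.14 in the other.

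Genes that the null alleles changed were read in the same comparison. Of 72 genes called in Kat6b-/- against WT embryos (0.508%), 58 (80.6%) had the same sign when Kat6b G577E was added to Kat6a E/E, with a median change of 0.0738 along the direction of the null. Of 375 genes called in Kat6a-/- against WT (2.64%), 316 (84.3%) had the same sign, with a median of 0.116, or 0.067 without Kat6a E/E replicate 1. Over all genes tested the shares were 60.7% and 61.9%, with medians of 0.0275 and 0.0303. These comparisons have no library in common with the double point mutant and Kat6a E/E embryos, but Kat6a E/E replicate 1 and WT replicate 2 were littermates, 1 set of surrogate variables served all fits, and the 2 null comparisons share the WT libraries. Without that litter, with the lists called again, 35 of 42 genes (83.3%) of the Kat6b-/- list and 104 of 136 (76.5%) of the Kat6a-/- list had the same sign, against 62.6% and 56.7% of all genes. Without the 3 null embryos that lacked Y-linked reads, 37 of 44 (84.1%) and 387 of 422 (91.7%) did, against 63.6% and 62.2% of all genes. Both of these fits were chosen after seeing the data. Without replicate 2 the shares were 84.7% and 82.9%, and without surrogate variables 66.7% and 83.7%. The share over all genes was not computed for these 2 fits, and 66.7% is not far above the 60.7% of the main fit. Of the genes called here, 5 were in the Kat6a-/- list, all in the same direction: Celsr2 (-0.51 in Kat6a-/-), Dpysl4 (-0.42), Notch1 (-0.31), Gja1 (0.19) and Rbm3 (0.28). Dpysl4 and Rbm3 were also in the Kat6b-/- list (-0.29 and 0.40). Rbm3, which is X-linked, was in neither list without the 3 null embryos that lacked Y-linked reads, where its log2 fold changes were 0.20 in Kat6a-/- and 0.33 in Kat6b-/-; Dpysl4 was then in the Kat6a-/- list alone, and Celsr2 was in both. Igdcc3 (-0.16 in Kat6b-/-) and Npm1 (0.16) were in that list and had FDRs of 0.12 and 0.09 here.

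In E14.5 LSK cells the same comparison called 0 of 13071 genes in limma (0% called), where 197 (1.51%) had an unadjusted p below 0.05; edgeR called 0 and DESeq2 0 with surrogate variables, and DESeq2 62 without them. Bmp2, Rhbdl3 and Spi1 were among the genes with the smallest p, each with an FDR near 1. Of the 18 embryo genes tested in LSK cells, 10 had the same sign. One library decided this count: without double point mutant LSK replicate 1, 1998 genes were called, 516 higher and 1482 lower, and without surrogate variables as well 521. Replicate 1 came from a different litter than replicates 2, 3 and 4, which were littermates. It had a count for 16710 genes, as 3 of the 4 Kat6a E/E LSK libraries did at 16492 to 17037, whereas replicates 2 to 4 had a count for 12600 to 13555 genes and Kat6a E/E replicate 2 for 13683. Genotype, litter and the number of genes detected cannot be told apart in those 3 libraries. Without replicate 1, 3 of the 18 genes were called, a share near the 15.1% of all genes called in that fit, and had the direction seen in embryos: Odc1 (0.32, FDR=0.01), Zfp770 (0.59, FDR=0.02) and Notch1 (-0.37, FDR=0.04). Others had the opposite sign there, among them Ciart (-1.41, FDR=0.07), Hes1 (-0.78, FDR=0.20) and Spry1 (-0.69, FDR=0.17).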

How the data were processed

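RNA was measured in whole E9.5 embryos (24 libraries of 6 genotypes) and in E14.5 LSK cells (16 libraries of 4 genotypes), with 4 libraries each. Per the study's methods, libraries were made with the TruSeq RNA v2 kit and sequenced in pairs, and the authors aligned reads to mm39 with Rsubread and counted read pairs per RefSeq gene with featureCounts. The deposited values are raw counts per gene with a gene length, and the authors did not normalise them. The 8 embryo libraries compared held 14135583 to 23339359 counts, and the LSK libraries of the same genotypes 12270376 to 31492230.

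Protein-coding genes outside the Y chromosome that passed edgeR's expression filter (minimum count 10, minimum total 15) were scaled by TMM. All embryo libraries were fitted together with limma's voomLmFit, 4 surrogate variables and robust moderated variances, treating litter as a random effect (R 4.3.3, edgeR 4.0.16, limma 3.58.1). P-values were adjusted over all genes by Benjamini-Hochberg, written FDR, and called under 0.05. All adjusted p-values are from this limma fit unless another tool is named. LSK libraries were fitted separately. Fold changes are from the fit, and CPM values are counts scaled to TMM library sizes, without surrogate variables. The scripts were tested on simulated data. edgeR's quasi-likelihood test and DESeq2 1.42.0, other numbers of surrogate variables, other filters and scalings, and leaving out each library were alternatives. Litters came from the labels, and the labels number the embryos without saying that a number links genotypes. The genes named were those with the smallest p in each direction, for the interaction too, with the members of chosen gene lists. The members and lists were chosen with earlier results of these data known. The tail bud list and its fits were chosen after seeing these data. Gene positions are from GENCODE vM39 (GRCm39), and promoters from RefSeq (GRCm38.p6). Nothing says whether a library was prepared more than once, so each was taken as a separate embryo. The p-values measure the spread between embryos that was left after the surrogate variables and the litter effect were fitted.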

Additional observations from a re-analysis of the deposited data

Results flagged for a closer look

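In 118 sets of 4 libraries, 10 had a highest or lowest library far from the other 3 by Dixon's criterion, where chance gives about 1 in 20. In the double point mutant, replicate 2 was the highest library for Hes1 (85.0 CPM) and Notch1 (162 CPM), for the summed endothelial genes (681 CPM) and for the summed cyclin-dependent kinase inhibitors and p53 targets (1170 CPM). It was the lowest for Odc1 (548 CPM) and for the summed Myc and polyamine genes (5240 CPM). Replicate 4 of the double point mutant was the lowest for Fgf15 (24.9 CPM) and the highest for the summed cardiac genes (2540 CPM). In Kat6a E/E, replicate 3 was the lowest for Spry1 (33.0 CPM), by 0.571 CPM, and the highest for the summed retinoic acid pathway genes (1450 CPM).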

How the results depend on the processing

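The 20 calls in embryos became 182 with 2 and 87 with 6 surrogate variables and 0 with none. They became 70 without the filter on low counts, and 203 when WT and the point mutants alone were fitted. The genotypes compared, fitted alone without surrogate variables, gave 0 (limma; 609 genes at an unadjusted p under 0.05). DESeq2 gave 47 with surrogate variables and 110 without, and edgeR 3 without. Leaving out 1 library gave 0 to 58. Chosen after seeing the data, 1 and 3 surrogate variables gave 49 and 13, double point mutant replicates 2 and 4 left out together gave 1, replicate 2 left out without surrogate variables gave 0 (1393 at an unadjusted p under 0.05), and the tail bud covariate gave 2, or 0 without surrogate variables (1184 at an unadjusted p under 0.05).

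Leaving out the 3 null embryos without Y-linked reads, also chosen after seeing the data, gave 33 calls and a median of 0.134 for the Kat6b-/- list called again. Leaving out the litter that Kat6a E/E and WT embryos share, chosen likewise, gave 19 calls in embryos and 1 for the interaction.

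The interaction gave 1 call with 6 surrogate variables, 1 with littermates summed, 2 and 1 with DESeq2 with and without surrogate variables, 10 when WT and the point mutants alone were fitted, and 0 to 2 when 1 library was left out. In LSK cells, DESeq2 without surrogate variables gave 62 calls, and leaving out 1 library gave 0 to 1998. Without double point mutant LSK replicate 1, also chosen after seeing the data, no surrogate variables gave 521 calls and 2 gave 1077. The median of the Kat6a-/- list was 0.067 to 0.133 when 1 library was left out, lowest without Kat6a E/E replicate 1. With the replicate number as a block, 37 genes were called in embryos, and 0 for the interaction, for Kat6b E/E against WT and in LSK cells; same-numbered libraries did not deviate together (correlations from -0.0925 to 0.0994), so the numbers were not taken as pairs.

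Over the fold changes of the genes named, 2742 values under an alternative kept their side of the threshold, 274 kept the direction but were no longer called, 120 kept it and became called, and no called gene turned its direction. The design holds 4 libraries a genotype, with litters nested in genotype and 1 double point mutant library far from the rest.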
